A study of Saccharomyces cerevisiae with 21 samples.

Results

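The PAU, COS, DAN and TIR genes of budding yeast (Saccharomyces cerevisiae) were taken as every gene of the full-gene count table whose symbol is 1 of those 4 names followed by a number. The rule gave 28 of 5823 genes, namely 10 PAU, 12 COS, 2 DAN and 4 TIR genes. The name of subtelomeric families covers part of them: 16 of the 28 members start within 25 kb of a chromosome end and 18 within 50 kb. The TIR genes, PAU2, PAU5, PAU7, PAU17, PAU23 and COS111 lie further in, and COS111 shares its symbol with the COS family but not its sequence, with 28.5% to 30.7% base identity to the other 11 COS genes.

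The study sequenced total RNA depleted of ribosomal RNA from 7 strains, with 3 libraries each. The mutants carried SPT6 alleles (spt6-R, spt6-KK, or both as spt6-R,KK) or RPB1 alleles (rpb1-TPY, rpb1-FSP, or both as rpb1-TPY,FSP), and they were set against a wild type (WT). Spt6 is a histone chaperone and elongation factor whose tandem SH2 domain binds Rpb1, the largest subunit of RNA polymerase II, and the residues behind the allele names are not spelled out in the labels. All strains were in logarithmic growth in rich medium at 30 °C. Each genotype is 1 strain by its strain number, and nothing says whether the 3 libraries came from separate cultures, so p-values measure the spread between these libraries, which may be technical.

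PAU genes (seripauperins) encode small serine-poor relatives of the DAN and TIR proteins, which are mannoproteins anchored in the cell wall. Genes of these families are known for being repressed in air and induced without oxygen, with Upc2 as an activator and Rox1 and Mot3 as repressors, and some TIR genes also respond to cold. COS genes encode membrane proteins that help to sort plasma membrane proteins to the vacuole, and most sit beside telomeres, where Sir proteins and other factors silence transcription.

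The members are hard to count one by one because relatives share long stretches. The PAU stretches printed here are bases of the coding sequence set against PAU24, with the bases that differ from PAU24 in capitals. They are shown because PAU24 carries the largest change of the family. Sequences and positions are those of RefSeq for the R64 build, the build named in the submitters' processing notes.
PAU24 (chrII:809159-809208, plus strand): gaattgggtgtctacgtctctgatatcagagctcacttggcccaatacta
PAU12 (chrVII:1080408-1080457, plus strand): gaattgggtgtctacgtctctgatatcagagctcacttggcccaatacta
PAU17 (chrXII:94858-94907, plus strand): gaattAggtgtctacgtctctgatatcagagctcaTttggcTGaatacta
PAU23 (chrXII:222899-222948, minus strand): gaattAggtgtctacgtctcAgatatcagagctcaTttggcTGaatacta
PAU7 (chrI:176866-176915, minus strand): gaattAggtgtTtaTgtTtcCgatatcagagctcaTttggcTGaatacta
The PAU24 and PAU12 stretch stands at 11 places in the genome, while those of PAU17, PAU23 and PAU7 stand at 1 place each and differ from it at 4, 5 and 8 bases.

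The same holds in the COS family. The stretches are set against COS1, again with the differing bases in capitals.
COS1 (chrXIV:8404-8453, plus strand): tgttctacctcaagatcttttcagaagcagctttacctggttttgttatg
COS2 (chrII:811356-811405, minus strand): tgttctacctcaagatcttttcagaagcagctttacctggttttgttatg
COS7 (chrIV:1876-1925, plus strand): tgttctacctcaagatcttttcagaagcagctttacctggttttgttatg
COS8 (chrVIII:6475-6524, plus strand): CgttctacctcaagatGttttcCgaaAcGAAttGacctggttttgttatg
COS9 (chrXI:14631-14680, plus strand): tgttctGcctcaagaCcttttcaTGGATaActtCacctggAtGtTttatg
COS10 (chrXIV:779972-780021, plus strand): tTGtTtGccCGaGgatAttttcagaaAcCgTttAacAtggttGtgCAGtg
COS12 (chrVII:2858-2907, plus strand): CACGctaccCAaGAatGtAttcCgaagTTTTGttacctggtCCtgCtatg
The COS1 stretch was found at 7 places, in COS1 to COS7. COS8, COS9, COS10 and COS12 differ from it at 8, 12, 17 and 19 bases.

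For each gene the share of its 50-base windows that occur once in the R64 genome was computed, 50 bases being the length of 1 read. Of 5623 genes placed in the annotation, 81 (1.44%) had under 50% such windows, against 10 of the 28 members (35.7%). COS2 and COS3 are identical to each other and had 0% unique windows, as did PAU6, which is identical to PAU18. COS5 (17%), PAU12 (17.5%), PAU13 (22%), COS4 (27.7%), COS1 (28.9%), COS7 (33.4%) and PAU24 (47.1%) also lay under 50%. DAN1, TIR2, TIR3, PAU7, COS10, COS12 and COS111 were unique throughout.

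The counts of shared genes depended on which deposited table they came from. The authors counted all signal in a gene in one table and sense reads over its middle 70% in another. Over all libraries, the mid-gene count exceeded the full-gene count for 11 of 28 members (39.3%), against 307 of 5810 genes in both tables (5.28%). The ratio of mid-gene to full-gene counts was 11.8 for COS4, 4.57 for COS2, 4.34 for COS5, 2.78 for PAU13, 2.43 for COS3 and 2.22 for COS7. It was 0.951 for COS9, 0.973 for DAN1, 0.914 for TIR2 and 0.979 for TIR3. The ratio did not follow the share of unique windows throughout. TIR1, with 87% unique windows, had 1.36, while PAU6, with 0%, had 0.876 and PAU24, with 47.1%, had 1.03. How reads that match several genes were handled was not stated, so single values of COS1 to COS7 and of the PAU genes under 50% are uncertain, and the part of read sharing in the ratios was not tested.

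**Figure D1:**
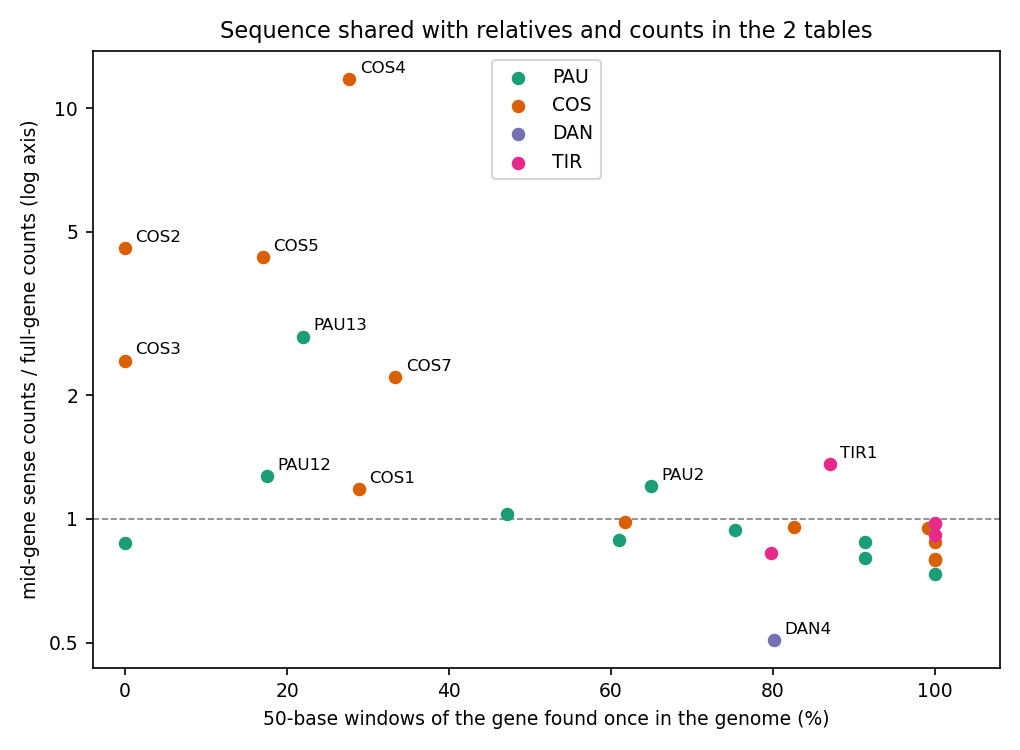
Ratio of mid-gene sense counts to full-gene counts over 21 libraries (log axis) against the percent of a gene's 50-base windows found once in the genome, 1 point per member, coloured by family. The 5 COS genes with ratios from 2.22 to 11.8 all had under 34% unique windows, and DAN4 had the lowest ratio, 0.508.

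Full-gene totals ran from 4860861 to 7803152 counts per library, and the members together took 1725 to 5054 of them, or 0.0345% to 0.0782%. Levels are given as CPM (counts scaled to a common library size) after TMM scaling, and levels are compared between genes only per kb of gene length. In WT the highest levels per kb were those of COS6 (107 CPM per kb), COS8 (52.9), TIR3 (50.7), TIR1 (36.8), COS9 (31.8) and PAU17 (26.9). The PAU genes PAU2, PAU3, PAU5, PAU6, PAU12 and PAU13 had 0 to 16 counts in each library and did not pass the filter on low counts, so 22 members were tested. PAU24 passed only through libraries of the double mutants, which means that a tested PAU24 had to be higher there, and counts of called members are therefore also given without it.

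Strains were compared with edgeR's quasi-likelihood test over 5618 genes, calling genes with a Benjamini-Hochberg adjusted p under 0.05. In spt6-R,KK 12 of 28 members rose and 0 fell, where 19% of all tested genes rose and 17.4% fell (36.4% called). In rpb1-TPY,FSP 13 rose and 0 fell, where 18.3% of all tested genes rose and 16.3% fell (34.6% called). Without PAU24 the counts were 11 and 12. In spt6-R 1 rose and 0 fell, where 3.93% of all tested genes rose and 4.45% fell (8.38% called). In spt6-KK 1 rose and 0 fell, where 6.44% rose and 7.05% fell (13.5% called). In rpb1-TPY 0 members were called, where 0.0534% of all tested genes rose and 0.0% fell. In rpb1-FSP 0 members were called, where 0.997% rose and 1.58% fell (2.58% called). At an unadjusted p under 0.05 (edgeR) there was 1 member in rpb1-TPY and there were 4 in rpb1-FSP. Of all 5618 tested genes, 86 and 918 had such a p. DESeq2 called 0 and 1 members, where it called 3 of 5823 and 247 of 4355 genes. All 6 comparisons share the WT libraries.

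Separation of the libraries was counted as well. All 3 spt6-R,KK libraries lay above all 3 WT libraries for 14 of 28 members (23.4% of all tested genes) and below them for 1, PAU6 (22.5%). In rpb1-TPY,FSP 15 members lay above WT (26.2%) and 0 below (22.1%). In spt6-R 8 lay above (17.4%), 7 of them COS genes, and 0 below (19.6%). In spt6-KK 5 lay above (18.9%) and 2 below (17.4%). In rpb1-TPY 2 lay above (3.24%) and 2 below (2.51%), and in rpb1-FSP 2 lay above (13%) and 2 below (14.5%). These percentages are over the 5618 tested genes, while the member counts include the 6 untested PAU genes. Among the 22 tested members alone, 14 lay above WT and 0 below in spt6-R,KK, 13 above and 0 below in rpb1-TPY,FSP (12 without PAU24), and 5 above and 1 below in spt6-KK, with the other counts as given.

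**Figure D2:**
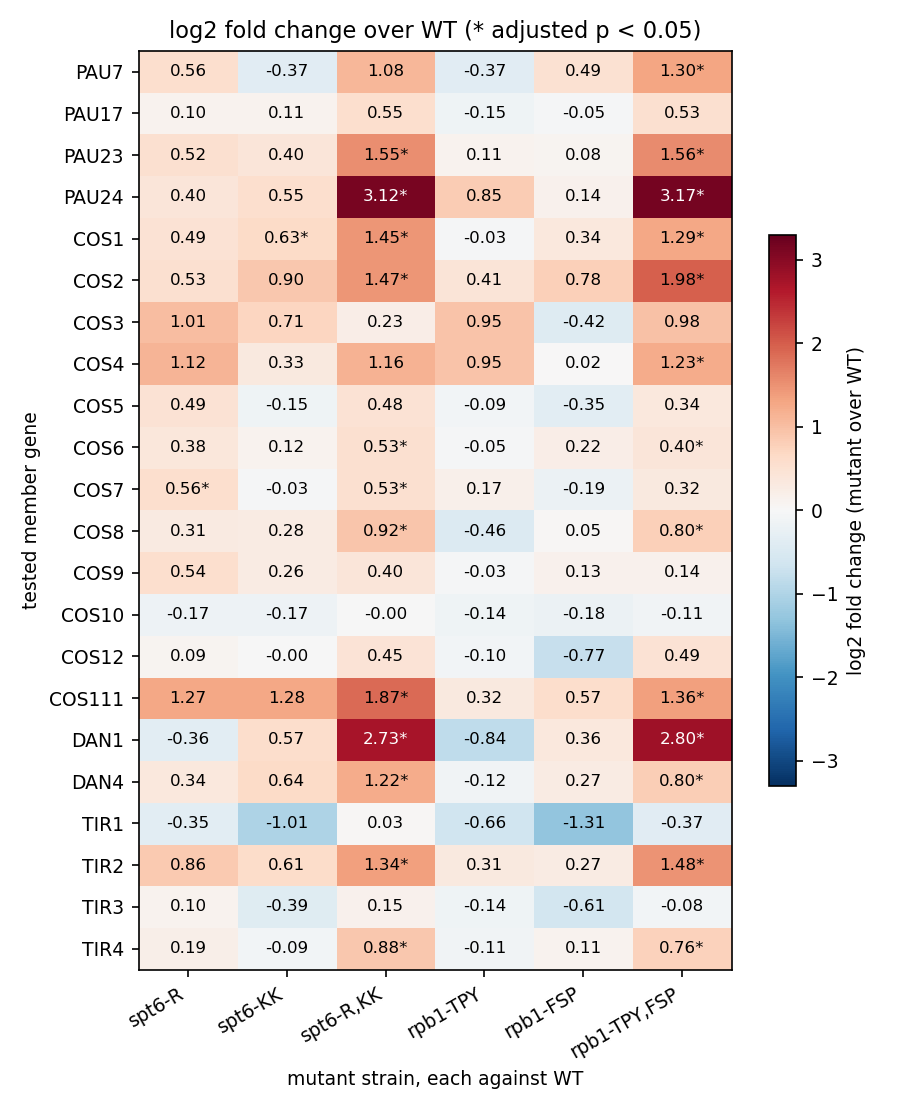
log2 fold change of the 22 tested members (rows, by family) in each mutant over WT (columns), with an asterisk where edgeR's adjusted p was under 0.05. The double mutants hold 12 and 13 of the asterisks, 1 each on PAU24, which the filter let in only through them, and the single mutants 1 in spt6-R (COS7) and 1 in spt6-KK (COS1).

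In the PAU family both double mutants stood above WT. The summed level of the 10 members was 36.8 ± 1.70 CPM in spt6-R,KK and 37.9 ± 9.57 CPM in rpb1-TPY,FSP, against 17.9 ± 1.71 CPM in WT (SD, n = 3 each). No library of either double mutant overlapped WT. In each single mutant the sum overlapped WT, with means of 16.8 to 21.1 CPM. The sum does not depend on how reads were split among these 10 genes, although 14 other annotated PAU genes are not in the full-gene table and can share reads with them. In a culture, more cells that express a gene and more RNA per cell cannot be told apart.

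PAU24, beside the right end of chromosome II, had the largest fold change of the members. It had 8.18, 3.13 and 1.04 CPM in spt6-R,KK, and 2.01, 5.01 and 5.93 CPM in rpb1-TPY,FSP, against 1.05, 0.157 and 0.0 CPM in WT. The lowest spt6-R,KK library was level with the highest WT library, while the rpb1-TPY,FSP libraries were all above WT. The fitted log2 fold change was 3.12 ± 0.81 in spt6-R,KK and 3.17 ± 0.80 in rpb1-TPY,FSP (SE). Both passed the threshold, but since the filter let PAU24 in only through these strains, the values are given as a description and no p-value is read from them. WT held 0 to 7 PAU24 counts per library, so the size is loose: without WT library 1 the values were 5.20 and 5.25. Without spt6-R,KK library 1 the first was 2.12 and no longer passed.

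PAU23, 223 kb from a chromosome end and 91.4% unique, is the best measured PAU gene that rose. It had 7.38, 10.3 and 12 CPM in spt6-R,KK, and 6.89, 9.24 and 14 CPM in rpb1-TPY,FSP, against 4.06, 2.83 and 3.19 CPM in WT. Every library of both double mutants exceeded every WT library. Its log2 fold change was 1.55 ± 0.35 in spt6-R,KK (SE, with 0.00137 as edgeR's adjusted p) and 1.56 ± 0.34 in rpb1-TPY,FSP (adjusted p = 0.00128), and it passed the test under every alternative run.

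PAU7, a short gene with 4 to 35 counts per library, had 2.44, 1.72 and 4.94 CPM in rpb1-TPY,FSP, against 1.05, 0.942 and 1.82 CPM in WT. Library 2 of rpb1-TPY,FSP overlapped WT. The log2 fold change was 1.30 ± 0.45 (SE, with 0.0295 as edgeR's adjusted p). The call was lost without WT library 1 (1.18, adjusted p = 0.0978), WT library 2 (1.12, 0.118) or rpb1-TPY,FSP library 3 (0.76, 0.235). In spt6-R,KK PAU7 had 2.41, 2.61 and 2.82 CPM, above every WT library, with a log2 fold change of 1.08 and an edgeR adjusted p of 0.0735, and it passed there with mid-gene counts (1.37, 0.0464). PAU17, the PAU gene with the highest level per kb in WT, averaged 14.7 CPM in spt6-R,KK and 14.4 CPM in rpb1-TPY,FSP, against 10.1 CPM in WT, with log2 fold changes of 0.55 and 0.53 that did not pass (edgeR adjusted p = 0.0516 and 0.0643). Every PAU17 level in the libraries of both double mutants exceeded every WT library. In spt6-R,KK PAU17 passed without WT library 3 (0.67, edgeR adjusted p = 0.0437) and with the replicate number as a block (0.56, 0.0431). The 6 untested PAU genes together had 5.45 ± 0.698 CPM in spt6-R,KK and 6.04 ± 1.04 CPM in rpb1-TPY,FSP, against 2.81 ± 0.0645 CPM in WT (SD, n = 3), with no overlap.

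**Figure D3:**
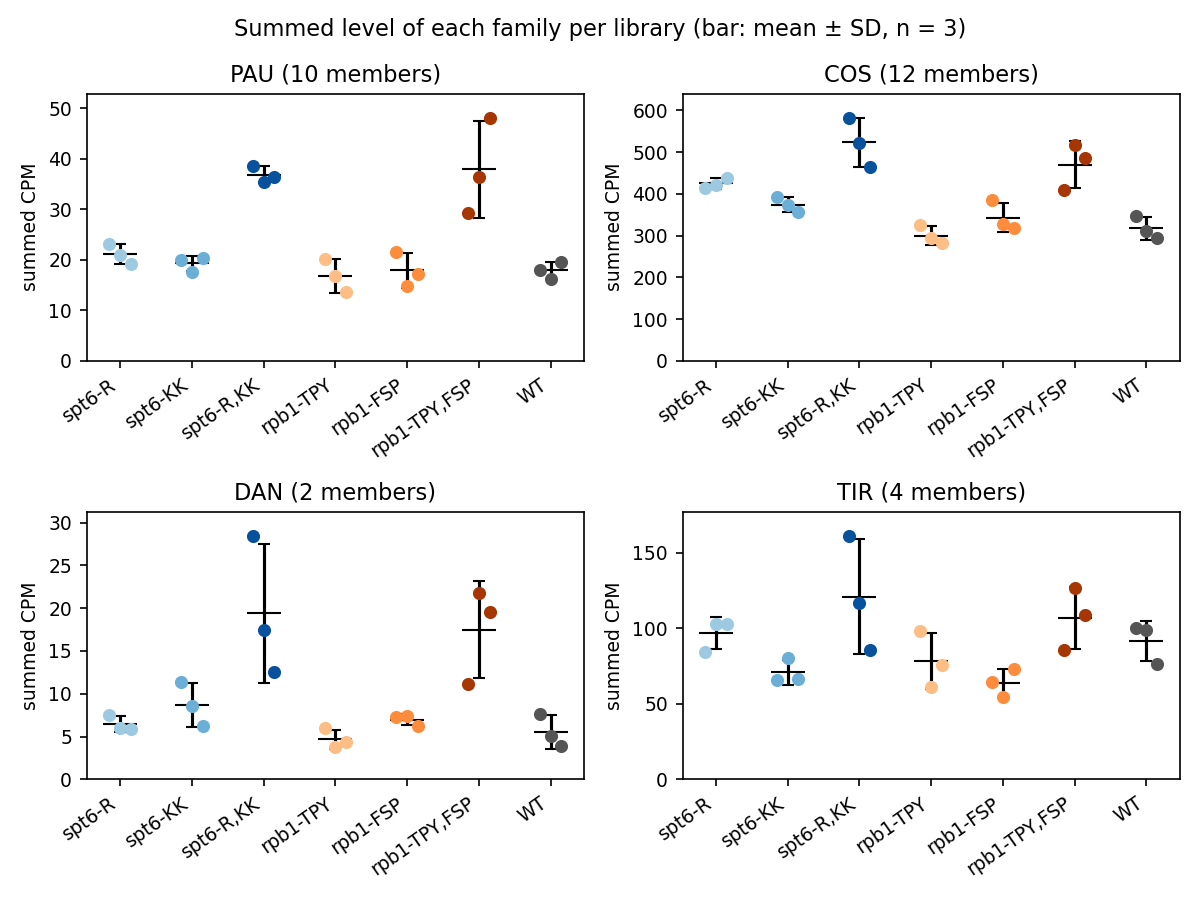
Summed CPM of each family per library for 6 mutants and WT, with points for libraries and bars for mean ± SD (n = 3). The PAU, COS and DAN sums of both double mutants lie above the WT libraries, and the TIR sums overlap WT.

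The DAN genes lie next to each other 30 to 36 kb from the right end of chromosome X. DAN1 encodes a cell wall mannoprotein made without oxygen. It had 18.9, 6.79 and 2.52 CPM in spt6-R,KK, and 5.83, 14.1 and 10 CPM in rpb1-TPY,FSP, against 2.41, 1.26 and 0.228 CPM in WT. No library of either double mutant overlapped WT, and the libraries lay far apart within spt6-R,KK and within WT. On the log2 scale it rose by 2.73 ± 0.81 in spt6-R,KK (SE, with 0.0139 as edgeR's adjusted p) and 2.80 ± 0.80 in rpb1-TPY,FSP (adjusted p = 0.0119). Without WT library 1 these were 3.48 and 3.56 (adjusted p = 0.0183 and 0.0175). In spt6-R,KK it no longer passed without WT library 2 (2.65, adjusted p = 0.0545), WT library 3 (2.34, 0.0516) or library 1 of spt6-R,KK (1.70, 0.102). In the single mutants DAN1 averaged 0.767 to 2.06 CPM.

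DAN4, which encodes another cell wall mannoprotein, changed less and varied less. It had 9.46, 10.6 and 9.94 CPM in spt6-R,KK, and 5.30, 7.67 and 9.60 CPM in rpb1-TPY,FSP, against 5.26, 3.77 and 3.64 CPM in WT. All libraries of the double mutants were above WT, rpb1-TPY,FSP library 1 by a narrow margin. On the log2 scale it rose by 1.22 ± 0.25 in spt6-R,KK (SE, with 0.000613 as edgeR's adjusted p) and 0.80 ± 0.25 in rpb1-TPY,FSP (adjusted p = 0.0175). The second call was lost without WT library 2 (0.71, adjusted p = 0.0767), WT library 3 (0.72, 0.0643), rpb1-TPY,FSP library 2 (0.76, 0.052) or rpb1-TPY,FSP library 3 (0.56, 0.132), and with mid-gene counts (0.42, 0.457).

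The TIR family did not move as a block. Its sum was 121 ± 38.0 CPM in spt6-R,KK and 107 ± 20.5 CPM in rpb1-TPY,FSP, against 91.9 ± 13.3 CPM in WT (SD, n = 3 each), and both overlapped WT. In rpb1-FSP it was 64.5, 54.4 and 72.9 CPM, below the 100.0, 99.1 and 76.5 CPM of WT. TIR2 and TIR4, neighbours on chromosome XV, 347 and 344 kb from its left end, rose in both double mutants, while TIR1 and TIR3 did not pass the test in any strain.

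TIR2 encodes a cell wall mannoprotein that also responds to cold. It had 16.8, 15.5 and 17.7 CPM in spt6-R,KK, and 10.3, 19.1 and 26.1 CPM in rpb1-TPY,FSP, against 6.17, 6.91 and 6.61 CPM in WT. The groups did not overlap. Its log2 fold change was 1.34 ± 0.29 in spt6-R,KK (SE, with 0.00105 as edgeR's adjusted p) and 1.48 ± 0.29 in rpb1-TPY,FSP (adjusted p = 0.000393). In spt6-R it had 10.4, 13 and 12.2 CPM, above WT, with a log2 fold change of 0.86 that did not pass (edgeR adjusted p = 0.0778); the authors' deposited table gave 0.66 for this comparison, with an adjusted p of 0.0447.

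TIR4, needed for growth without oxygen, had 39.9, 25.6 and 24.0 CPM in spt6-R,KK, and 26.9, 31.2 and 24.3 CPM in rpb1-TPY,FSP, against 17, 16.8 and 14.6 CPM in WT. Again the groups did not overlap. Its fold change (log2) was 0.88 ± 0.20 in spt6-R,KK (SE, with 0.00125 as edgeR's adjusted p) and 0.76 ± 0.20 in rpb1-TPY,FSP (adjusted p = 0.00445). The TIR2 and TIR4 calls against WT held under every alternative run.

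TIR1, a cell wall mannoprotein gene, had its lowest levels in single mutants. It had 8.45, 20.4 and 13.4 CPM in spt6-KK, 16.7, 14.5 and 22.2 CPM in rpb1-TPY, and 10.2, 8.65 and 15.3 CPM in rpb1-FSP, against 29, 29 and 26.4 CPM in WT. Every library of these 3 strains was below every WT library. The log2 fold change was -1.01 in spt6-KK (edgeR adjusted p = 0.0873), -0.66 in rpb1-TPY (1.00) and -1.31 in rpb1-FSP (0.0898), so none passed. The authors' deposited table gave adjusted p-values of 0.0325 for spt6-KK on full-gene counts and 0.0319 for rpb1-FSP on mid-gene counts. In the double mutants TIR1 had 46.3, 22.1 and 17.9 CPM in spt6-R,KK, and 17, 27.7 and 21.0 CPM in rpb1-TPY,FSP, both overlapping WT. TIR3 averaged 46.0 ± 17.3 CPM in spt6-R,KK and 39.3 ± 8.63 CPM in rpb1-TPY,FSP, against 41.1 ± 10.6 CPM in WT (SD, n = 3), differences smaller than the spread.

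**Figure D4:**
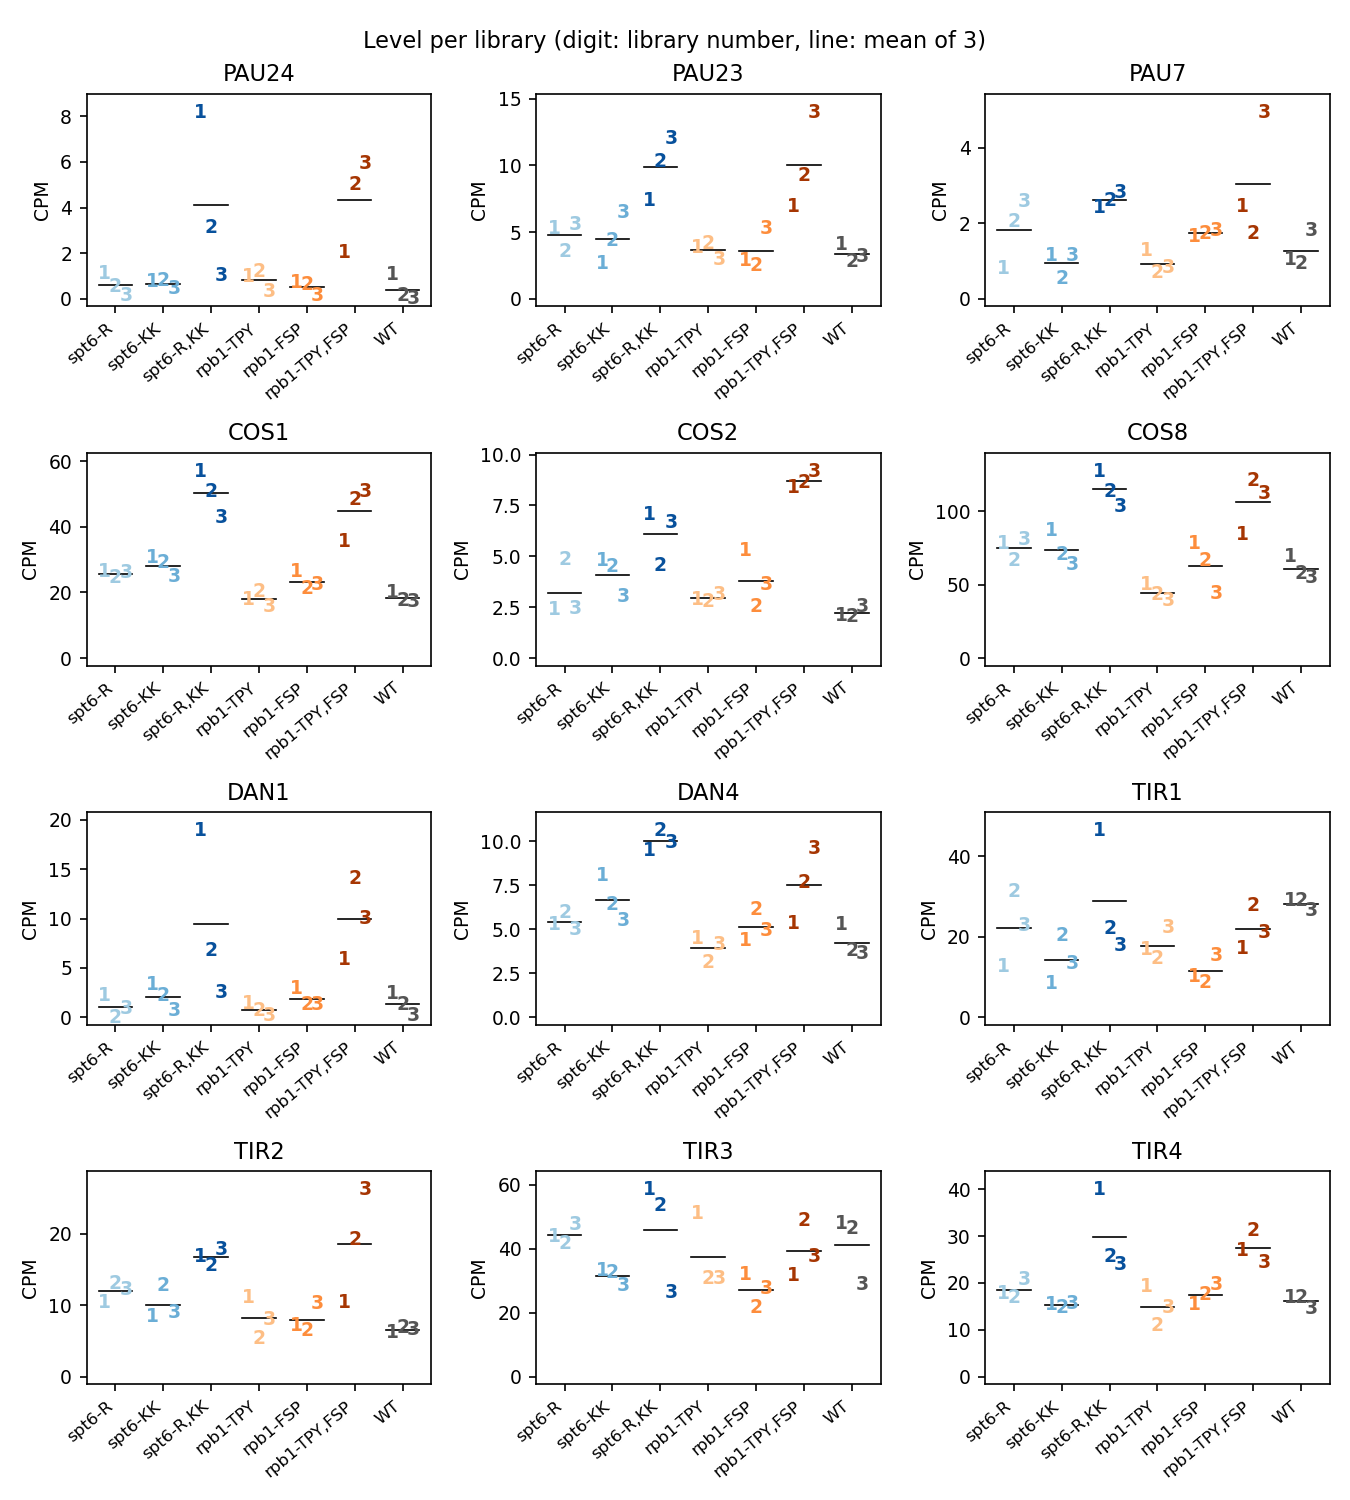
CPM of 12 members in each library of 6 mutants and WT; digits are library numbers and lines are means of 3. DAN1 and PAU24 are highest in spt6-R,KK library 1 (18.9 and 8.18 CPM), while TIR1 in rpb1-FSP (8.65 to 15.3 CPM) lies below WT (26.4 to 29 CPM).

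The promoters of DAN1, DAN4, TIR2 and TIR4, which rose, and of PAU24 are printed from 250 bases before to 50 bases after the annotated start of the coding sequence (RefSeq, R64). Capitals mark matches, on either strand, to the first letters of the anaerobic response site AR1 (TCGTTCA or else TCGTTTA), the sterol response core (TCGTATA), and lastly the Rox1 core (ATTGTTC).
DAN1 (chrX:709658-709957, minus strand): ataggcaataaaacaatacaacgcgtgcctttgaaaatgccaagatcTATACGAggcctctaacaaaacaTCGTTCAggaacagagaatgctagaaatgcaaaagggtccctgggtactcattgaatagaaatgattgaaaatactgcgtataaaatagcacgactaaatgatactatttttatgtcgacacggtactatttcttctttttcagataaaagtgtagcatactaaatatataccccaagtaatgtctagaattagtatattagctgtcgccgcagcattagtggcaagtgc
DAN4 (chrX:715691-715990, minus strand): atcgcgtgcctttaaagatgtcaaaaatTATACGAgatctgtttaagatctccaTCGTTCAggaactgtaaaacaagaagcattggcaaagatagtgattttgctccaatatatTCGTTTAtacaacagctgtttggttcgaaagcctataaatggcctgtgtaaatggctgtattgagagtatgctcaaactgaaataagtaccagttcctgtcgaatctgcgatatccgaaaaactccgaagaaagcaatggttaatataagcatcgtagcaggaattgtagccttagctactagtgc
PAU24 (chrII:808807-809106, plus strand): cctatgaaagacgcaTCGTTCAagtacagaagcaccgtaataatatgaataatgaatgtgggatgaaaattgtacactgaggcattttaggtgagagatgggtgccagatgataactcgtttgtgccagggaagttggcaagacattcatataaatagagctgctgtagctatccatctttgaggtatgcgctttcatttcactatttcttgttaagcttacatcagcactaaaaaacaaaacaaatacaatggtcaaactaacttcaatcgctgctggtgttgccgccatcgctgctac
TIR2 (chrXV:346901-347200, minus strand): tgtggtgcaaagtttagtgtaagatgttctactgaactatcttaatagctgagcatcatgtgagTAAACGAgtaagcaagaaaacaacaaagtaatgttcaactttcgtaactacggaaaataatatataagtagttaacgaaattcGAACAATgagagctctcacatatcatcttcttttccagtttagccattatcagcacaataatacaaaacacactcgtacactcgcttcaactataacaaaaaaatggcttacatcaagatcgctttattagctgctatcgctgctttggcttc
TIR4 (chrXV:344085-344384, plus strand): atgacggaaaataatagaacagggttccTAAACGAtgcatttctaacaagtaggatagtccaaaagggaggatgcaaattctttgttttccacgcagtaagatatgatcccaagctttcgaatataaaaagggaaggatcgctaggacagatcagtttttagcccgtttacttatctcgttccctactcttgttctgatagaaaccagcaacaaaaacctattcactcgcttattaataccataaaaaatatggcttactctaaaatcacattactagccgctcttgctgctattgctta
The AR1 letters stood in 9 of 10 PAU promoters (PAU23 was without them), in both DAN promoters, in those of TIR2 and TIR4 and in that of COS12, that is in 14 of 28 members, against 8.90% of 6020 promoters. Some PAU promoters are near copies of each other, such as those of PAU12 and PAU24, so the 14 are not independent. The sterol response core stood in DAN1, DAN4, PAU2 and COS9 (4.14% of promoters) and the Rox1 core in TIR2 and TIR3 (7.64%). A match describes letters only. Whether these letters bear on the changes was not tested.

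The summed COS level stood above WT in both double mutants, which was not tested. COS6 (122 CPM) and COS8 (60.6 CPM) carry much of the WT sum, and 6 of the 12 members were called in each double mutant. The 12 members had 523 ± 58.3 CPM in spt6-R,KK and 470 ± 55.4 CPM in rpb1-TPY,FSP, against 317 ± 27.5 CPM in WT (SD, n = 3 each), with no overlap. Without COS111 the sums were 479 ± 72.6 and 439 ± 46.0 CPM, against 305 ± 26.6 CPM in WT. In spt6-R the 12 genes had 414, 422 and 438 CPM, all above the 347, 310 and 293 CPM of WT. In spt6-KK they had 393, 372 and 357 CPM, also above WT, but without COS111 spt6-KK overlapped WT. The sums of rpb1-TPY (300 ± 22.7 CPM) and rpb1-FSP (343 ± 35.6 CPM) overlapped WT.

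COS1 had the smallest adjusted p of the members. It had 56.9, 50.8 and 42.7 CPM in spt6-R,KK, and 35.5, 48.2 and 50.7 CPM in rpb1-TPY,FSP, against 20, 17.4 and 17.3 CPM in WT. The groups were far apart, with a log2 fold change of 1.45 ± 0.16 in spt6-R,KK (SE, with 2.74e-07 as edgeR's adjusted p) and 1.29 ± 0.16 in rpb1-TPY,FSP (adjusted p = 1.28e-06). In spt6-KK, with 30.8, 29.1 and 24.8 CPM, it also rose (0.63 ± 0.16, adjusted p = 0.0116), a call lost without WT library 2 (0.59, adjusted p = 0.0571), WT library 3 (0.59, 0.0506) or spt6-KK library 2 (0.59, 0.0589).

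COS2, which is identical to COS3 in sequence, was counted apart from it. COS2 had 7.06, 4.53 and 6.68 CPM in spt6-R,KK, and 8.38, 8.61 and 9.17 CPM in rpb1-TPY,FSP, against 2.11, 2.04 and 2.51 CPM in WT. Its log2 fold change was 1.47 ± 0.32 in spt6-R,KK (SE, with 0.00113 as edgeR's adjusted p) and 1.98 ± 0.31 in rpb1-TPY,FSP (adjusted p = 3.52e-05); with mid-gene counts the second was 1.02 (adjusted p = 0.000519). COS3 had log2 fold changes of 0.23 and 0.98 that did not pass (edgeR adjusted p = 0.793 and 0.162). Genes of identical sequence cannot be told apart by reads within them, and the part of this in the COS2 and COS3 values was not tested.

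COS8, the COS gene with 82.6% unique windows and a high level, had 127, 113 and 103 CPM in spt6-R,KK, and 83.9, 121 and 112 CPM in rpb1-TPY,FSP, against 69.2, 57.5 and 55.1 CPM in WT. All libraries of the double mutants were above WT. Its log2 fold change was 0.92 ± 0.18 in spt6-R,KK (SE, with 0.000337 as edgeR's adjusted p) and 0.80 ± 0.18 in rpb1-TPY,FSP (adjusted p = 0.00134). COS6, the member with the highest level per kb, rose by 0.53 in spt6-R,KK (edgeR adjusted p = 0.00198) and by 0.40 in rpb1-TPY,FSP (0.0153), the second call being lost without WT library 2 (0.39, 0.0524), WT library 3 (0.33, 0.0797), rpb1-TPY,FSP library 2 (0.26, 0.144) or rpb1-TPY,FSP library 3 (0.37, 0.0627).

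COS111, named for sensitivity to the antifungal ciclopirox olamine, had 28.4, 46.6 and 56.8 CPM in spt6-R,KK, and 19.4, 36.2 and 37.5 CPM in rpb1-TPY,FSP, against 14, 9.11 and 13 CPM in WT. All were above WT. The log2 fold change was 1.87 ± 0.42 in spt6-R,KK (SE, with 0.0023 as edgeR's adjusted p) and 1.36 ± 0.42 in rpb1-TPY,FSP (adjusted p = 0.0189). The second call was lost without WT library 2 (1.19, adjusted p = 0.0828), rpb1-TPY,FSP library 2 (1.22, 0.0658) or rpb1-TPY,FSP library 3 (1.18, 0.0763). In spt6-R and spt6-KK its log2 fold changes of 1.27 and 1.28 did not pass (edgeR adjusted p = 0.0751 and 0.0534). The authors' deposited table, made with DESeq2, gave adjusted p-values of 0.0276 and 0.0236 for these on full-gene counts, both higher than WT.

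COS7 rose in spt6-R (24.5, 21.2 and 22.7 CPM, against 17.4, 16 and 12.8 CPM in WT), with a log2 fold change of 0.56 ± 0.16 (SE, with 0.037 as edgeR's adjusted p). The call was lost without WT library 2 (0.58, adjusted p = 0.114), WT library 3 (0.45, 0.165) or spt6-R library 1 (0.50, 0.0958), 2 (0.60, 0.0813) or 3 (0.56, 0.0978), and with mid-gene counts (0.34, 0.166). In spt6-R,KK COS7 rose by 0.53 (edgeR adjusted p = 0.0144), which did not pass without WT library 3 (0.42, 0.0788) or library 1 of spt6-R,KK (0.44, 0.0616). COS4 rose in rpb1-TPY,FSP by 1.23 (edgeR adjusted p = 0.0439), but 7 of 12 alternatives lost the call. It was lost without WT library 1 (1.19, 0.111), without WT library 2 (1.01, 0.167), without any 1 rpb1-TPY,FSP library (1.19 to 1.26, 0.0715 to 0.0881), without library 1 of both double mutants (1.19, 0.0718) and with DESeq2 (1.20, 0.061). In spt6-R,KK COS4 (1.16, edgeR adjusted p = 0.0611) passed with mid-gene counts (1.23, 3.47e-05) and without spt6-R,KK library 1 (1.40, 0.0326). COS5 (0.48, adjusted p = 0.0745) passed there with mid-gene counts (0.92, 5.79e-05) and without spt6-R,KK library 3 (0.61, 0.0363).

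COS9, COS10 and COS12, the COS genes with 99% to 100% unique windows other than COS111, did not pass in any strain. COS10, which promotes turnover of membrane proteins, had 21.6 ± 5.10 CPM in spt6-R,KK and 19.9 ± 4.37 CPM in rpb1-TPY,FSP, against 21.7 ± 1.70 CPM in WT (SD, n = 3). COS12 had 15.7 ± 6.27 and 16.1 ± 3.27 CPM in the same strains, against 11.3 ± 5.27 CPM in WT. COS9 had 51.3 ± 20.9 and 42.8 ± 6.78 CPM, against 38.9 ± 2.26 CPM in WT. Of the 13 members with at least 80% unique windows, all tested, 6 rose in spt6-R,KK and 7 in rpb1-TPY,FSP. Of the 15 other members 9 were tested, and 6 of these 9 rose in each (5 of 8 without PAU24). Of all tested genes, 19% rose in spt6-R,KK and 18.3% in rpb1-TPY,FSP.

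Whether a double mutant differed from the sum of its singles was tested on the log2 scale. For the Spt6 alleles 0 members passed, where 0.392% of all genes did (0.125% higher and 0.267% lower). At an unadjusted p under 0.05 (edgeR) there were 2 members, where 820 of 5618 genes had such a p. DESeq2 called 0 members, where it called 102 of 5823 genes. For the Rpb1 alleles 2 members passed, both higher, where 3.08% of all genes passed (1.25% higher and 1.83% lower). An unadjusted p under 0.05 (edgeR) was found for 10 members there, where 929 of 5618 genes had such a p. The median difference from the Rpb1 sum was 0.77 over the 22 tested members, PAU24 included, against 0.034 over all tested genes. COS8 was 1.21 ± 0.25 above the sum (SE, with 0.01 as edgeR's adjusted p). It had 83.9, 121 and 112 CPM in rpb1-TPY,FSP, 49.8, 43.3 and 39.2 CPM in rpb1-TPY and 78.1, 66.4 and 43.8 CPM in rpb1-FSP, against 69.2, 57.5 and 55.1 CPM in WT. Every rpb1-TPY library was below WT and every rpb1-TPY,FSP library above it.

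COS1 was 0.97 ± 0.22 above the sum of the Rpb1 singles (SE, with 0.0177 as edgeR's adjusted p), with 18, 20.2 and 15.7 CPM in rpb1-TPY and 26.4, 21.1 and 22.3 CPM in rpb1-FSP. This call was lost without WT library 1 (0.90, adjusted p = 0.0568), rpb1-TPY library 3 (0.89, 0.0537), rpb1-FSP library 2 (0.91, 0.0588), rpb1-TPY,FSP library 2 (0.89, 0.0509) or rpb1-TPY,FSP library 3 (0.84, 0.0643). The double mutants were also compared with each other, and 0 members differed, where 0.0356% of all genes did. No member reached an unadjusted p under 0.05 with edgeR, where 199 of 5618 genes did. DESeq2 called 0 members, where it called 2 of 5823 genes. The log2 differences of spt6-R,KK from rpb1-TPY,FSP ran from -0.75 ± 0.51 for COS3 to 0.51 ± 0.38 for COS111 (SE), which leaves room for differences of that size.

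Position was set beside the calls, since most COS and many PAU genes sit at chromosome ends. Of members within 25 kb of an end, 6 of 12 tested rose in each double mutant, or 5 of 11 without PAU24. Of the other genes within 25 kb, 80 of 176 tested rose in spt6-R,KK (45.5%) and 73 in rpb1-TPY,FSP (41.5%), against 18% and 17.4% of other genes further in. The difference between members and these neighbours was not tested. Of members beyond 25 kb, among them the DAN and TIR genes and PAU23, 6 of 10 tested rose in spt6-R,KK and 7 in rpb1-TPY,FSP. In spt6-R 6.82% of the other genes within 25 kb rose, and in spt6-KK 5.68%.

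**Figure D5:**
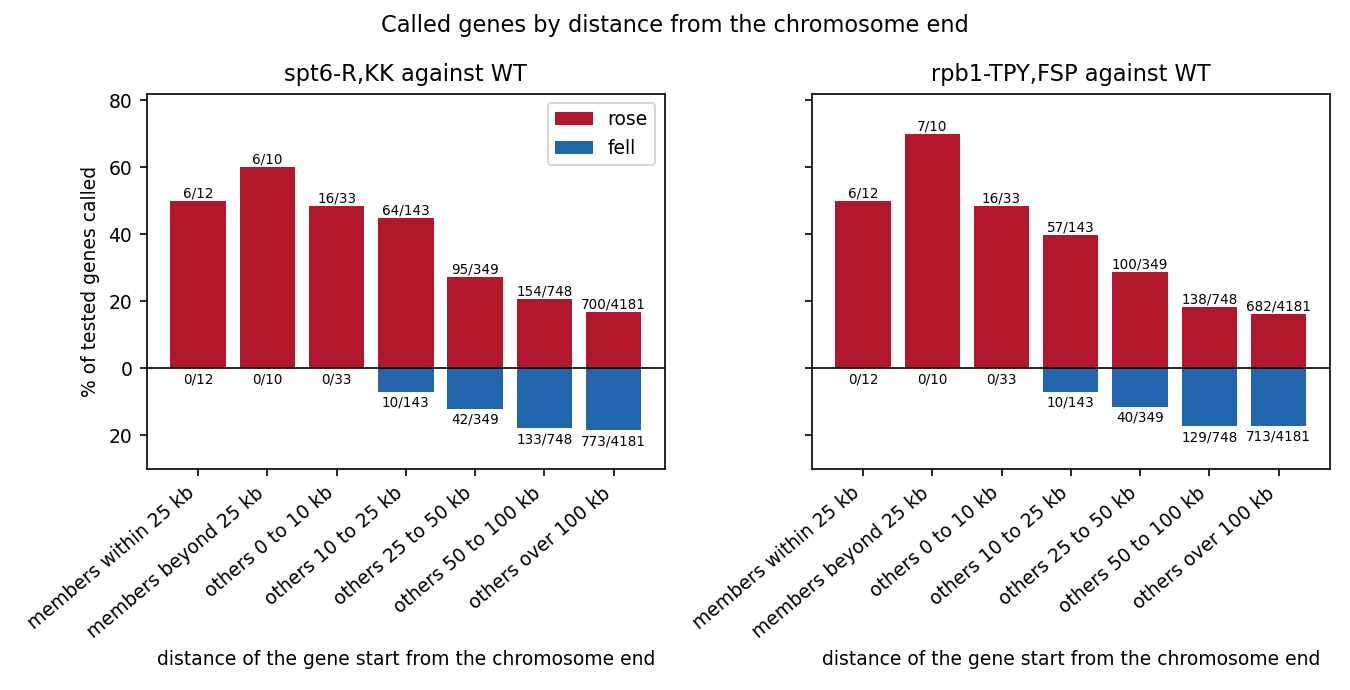
Percent of tested genes that rose (up) and fell (down) in each double mutant against WT, for members within and beyond 25 kb of a chromosome end and for other genes by distance of the start; fractions give the counts. The share of other genes that rose is 48.5% within 10 kb in both and 16.7% and 16.3% beyond 100 kb.

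Genes around these pathways were read from lists chosen with earlier results known. Of 10 hypoxic genes, 2 rose in spt6-R,KK and 2 in rpb1-TPY,FSP, near the 19% and 18.3% of all tested genes that rose, so the count says nothing particular of the list. They were AUS1, a sterol transporter (1.42 ± 0.17 and 1.21 ± 0.17, SE), and CYC7, a cytochrome c isoform (1.06 ± 0.25 and 0.93 ± 0.24); the list's medians were 0.27 and 0.14, against 0.02 and 0.06 over all tested genes. AUS1 also rose in spt6-R (0.70 ± 0.17). Of 11 regulators of DAN and TIR genes, SUT1, a sterol uptake regulator, rose in both (0.83 ± 0.18 and 0.81 ± 0.18), HAP1 rose (0.61 ± 0.21) and MOT3, the repressor named above, fell (-0.59 ± 0.17) in spt6-R,KK. UPC2 and ROX1 were not called in either. Of 17 tested silencing factors, YKU70 (0.63 ± 0.23) and HDA2 (0.47 ± 0.16) rose and ABF1 fell (-0.54 ± 0.18) in spt6-R,KK, and HDA2 rose (0.88 ± 0.16) in rpb1-TPY,FSP. In spt6-KK 3 rose, SIR3 (0.71 ± 0.21), SAS4 (0.68 ± 0.21) and YKU70 (0.76 ± 0.23). Of all tested genes, 19% rose and 17.4% fell in spt6-R,KK, 18.3% rose in rpb1-TPY,FSP and 6.44% rose in spt6-KK.

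Of 10 other cell wall proteins, 4 rose in each double mutant (19% and 18.3% of all tested genes) and 4 in spt6-R (3.93%). In the double mutants they were SPI1 (3.02 ± 0.41 and 2.66 ± 0.41), CWP2 (1.21 ± 0.22 and 1.16 ± 0.22), PST1 (1.17 ± 0.15 and 1.09 ± 0.15) and SED1 (0.95 ± 0.20 and 0.80 ± 0.20), and ECM33 (-0.57 ± 0.15) and GAS1 (-0.45 ± 0.14) fell in rpb1-TPY,FSP. The same genes rose in spt6-R, SPI1 by 1.5 ± 0.41, SED1 by 0.79 ± 0.20, CWP2 by 0.78 ± 0.22 and PST1 by 0.69 ± 0.15. PST1 also rose in rpb1-FSP (0.61 ± 0.15), and ECM33 fell in spt6-KK (-0.48 ± 0.15). SPI1 had 97.8, 111 and 47.5 CPM in spt6-R,KK and 45.3, 95 and 60.1 CPM in rpb1-TPY,FSP, against 11.3, 8.16 and 12.3 CPM in WT. Of 4 mating genes, used to check the cells, 3 rose in each double mutant and 2 in spt6-R. The a-cell receptor STE2 had 908 to 1280 CPM in spt6-R,KK, 953 to 1110 CPM in rpb1-TPY,FSP and 879 to 981 CPM in spt6-R, against 616 to 652 CPM in WT, and rose in all 3. The alpha-cell receptor STE3 had 4.17 to 8.01 CPM in spt6-R,KK, 4.77 to 6.58 CPM in rpb1-TPY,FSP and 5.59 to 6.52 CPM in spt6-R, against 0.785 to 2.86 CPM in WT, and also rose in all 3. The alpha-cell agglutinin SAG1 rose in spt6-R,KK (0.95 ± 0.21) and rpb1-TPY,FSP (1.13 ± 0.20). The a-cell protease BAR1 averaged 264 CPM in spt6-R,KK and 244 CPM in rpb1-TPY,FSP, against 261 CPM in WT, and was not called in any strain.

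The authors' deposited table, made with DESeq2, counted 12 members as higher in spt6-R,KK and 13 in rpb1-TPY,FSP on full-gene counts, and 14 and 13 on mid-gene counts. On full-gene counts it had 2 members higher in spt6-R, and 2 higher and 1 lower in spt6-KK. On mid-gene counts it had 2 higher in each of these strains and 1 lower in rpb1-FSP. Not every member had an adjusted p there, with 14 in spt6-R on full-gene counts. For PAU24 the authors' deposited table gave log2 fold changes of 1.27 in spt6-R,KK and 1.30 in rpb1-TPY,FSP, lower than the edgeR values of 3.12 and 3.17, and for DAN1 it gave 0.83 and 0.86. For COS4 in rpb1-TPY,FSP it gave 0.68, where DESeq2 run here gave 1.20. The deposited fold changes may therefore not be the same measure, and the sizes are not compared further.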

How the data were processed

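The 21 libraries were read on both ends, 50 bases each, keeping strand. Per the submitters' processing notes, the authors used cutadapt 1.16, STAR 2.6.1b, featureCounts 1.6.3 of Subread and DESeq2 1.22.2 with the R64 (sacCer3) build. The deposited tables hold raw counts for each gene, 1 over the full gene and 1 over its middle, per the file headers. The authors' deposited table gives log2 fold changes and adjusted p-values from DESeq2. Each set of counts had 3 rows that held no values, which were left out. The files hold no coordinates, so positions and sequences came from RefSeq R64, in which 5623 of 5823 identifiers were found.

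Full-gene counts were fitted with edgeR 4.0.16 in R 4.3.3 (filterByExpr with a minimum of 10, TMM, robust quasi-likelihood, strain as the only term, 5618 genes tested). Genes varied between libraries by a common coefficient of 0.154. Errors are standard errors of contrasts or SDs of CPM. Each standard error was derived from edgeR's test, as the absolute log2 fold change over the square root of the F value. Alternatives were DESeq2 1.42.0, other size factors, no filter, a replicate block, mid-gene counts and leaving out each library; leaving out the libraries numbered 1 of both double mutants was added after seeing the data, as were counts without PAU24.

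Values per library are given for called members with a mean of at least 20 counts in 1 strain, up to 8 per double mutant against WT and up to 3 in other comparisons, and any member may be named. Members and lists were chosen with earlier results of these data known. Between the double mutants same-numbered libraries deviated together (r 0.367 to 0.442, 3 pairs). Libraries of unlike number were not compared there, and the labels name no batch, so a pairing is not established.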

Additional observations from a re-analysis of the deposited data

Results flagged for a closer look

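COS8 was 1.21 and COS1 0.97 (log2) higher in rpb1-TPY,FSP than the sum of rpb1-TPY and rpb1-FSP, by edgeR's test of that difference (adjusted p = 0.01 and 0.0177). COS8 passed in 18 of 18 alternatives. COS1 lost the call in 5 of 18, and 28.9% of its 50-base windows are unique, so its value is uncertain.

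Of 6 PAU genes in the mid-gene table only, 4 had some mutant whose 3 libraries all lay above WT, scaled to library totals. For PAU9 and PAU11 this rests on mutant libraries with 1 read, as many as a WT library had, placed above it only by their smaller totals. The share of all genes separated in this way was not computed for these counts. Counts are summed over 3 libraries and were not tested, and all are low. PAU1 had 31 counts in spt6-R,KK and 26 in rpb1-TPY,FSP, and 4 to 12 in the single mutants, against 8 in WT. PAU9 had 10 in spt6-R,KK, 12 in spt6-R, 7 in spt6-KK, 9 in rpb1-TPY, 3 in rpb1-FSP and 9 in rpb1-TPY,FSP, against 3 in WT, and its libraries overlapped WT in all but spt6-R,KK. PAU11 had 12 in spt6-R,KK, 9 in rpb1-FSP, 6 in spt6-R and 6 in spt6-KK, and, with libraries overlapping WT, 7 in rpb1-TPY,FSP and 3 in rpb1-TPY, against 1 in WT. PAU19 had 6 in spt6-R,KK and 8 in rpb1-TPY,FSP, 2 in rpb1-TPY and 0 in the other single mutants, against 0 in WT. PAU22 had 13 counts in spt6-R,KK, 11 counts in rpb1-TPY,FSP and 0 to 3 in the single mutants, against 6 in WT. PAU18 had 37 counts in spt6-R,KK, 51 counts in rpb1-TPY,FSP and 45 to 50 in the single mutants, against 59 in WT. These genes share sequence with other PAU genes, and the part of that sharing was not tested.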

How the results depend on the processing

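In spt6-R,KK 12 members were called and 11 to 15 when 1 library was left out; in rpb1-TPY,FSP 13 were called and 8 to 13 then, with 8 without WT library 2 and 8 without rpb1-TPY,FSP library 3. In spt6-R 1 member was called, with 2 by DESeq2, 4 with the replicate block, 2 with mid-gene counts and 0 to 2 when 1 library was left out. In spt6-KK 1 was called, with 3 by DESeq2, 2 with the replicate block and 0 to 2 when 1 library was left out. In rpb1-FSP DESeq2 called 1 in place of 0. Against the sum of the Rpb1 singles 2 were called, 4 when library 1 of each double mutant was left out and 1 to 2 when 1 library was left out. The cause was not tested. No called fold change of a member reversed. The direction of fold changes that were not called was not followed for all members. Same-numbered mutant and WT libraries did not deviate together (r -0.416 to 0.202 in 18 pairs), and 5 libraries were closest to their own number. All pairs used the same 3 WT libraries, so a pairing was not established, and a shared batch was not tested. In the comparison of the double mutants with each other, the block changed no call of a member. Over all genes, calls against the sum of singles were 22 for Spt6, with 102 by DESeq2, 100 with the block and 129 without the numbered-1 libraries, and 173 for Rpb1, with 260 by DESeq2 and 362 without those libraries; in rpb1-FSP 145 became 247 by DESeq2. In spt6-R 471 calls over all genes became 581 by DESeq2, 593 with the block and 410 with mid-gene counts. In spt6-KK 758 became 831 by DESeq2 and 929 with the block. Leaving out 1 library gave 1523 to 1982 calls over all genes in spt6-R,KK (2047 with all libraries) and 1457 to 1931 in rpb1-TPY,FSP (1944). It gave 111 to 484 in spt6-R (471), 258 to 970 in spt6-KK (758) and 50 to 119 in rpb1-FSP (145). Against the Spt6 sum it gave 7 to 45, and against the Rpb1 sum 87 to 236. Low counts limit PAU24, DAN1, PAU7, COS3 and COS4, and shared sequence limits COS1 to COS7 and most PAU genes.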
